A study of Mus musculus with 16 samples.

Results

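Promoters bound by Jarid2 without a peak of its methylated form were examined in mouse embryonic stem cells (ESC). A Jarid2 peak was retained when it shared no base with any peak of Jarid2 dimethylated at K116 (Jarid2-K116me2) and when its midpoint lay within 1 kb of an annotated transcription start site (TSS). Of 4992 Jarid2 peaks, 480 met this rule. They are called Jarid2-only TSS peaks here. They were thus chosen from the 2 peak lists themselves, so their Jarid2 scores and their lack of a Jarid2-K116me2 peak are descriptions and were not tested. The study reads peaks found with a single antibody as most likely due to differing depth and background estimates, not as specific to either form. That reading was not tested here. A repeat array holding 67 Jarid2 peaks was left out, which leaves 4925 peaks, of which 999 were Jarid2-only. The main points of comparison were the 2685 Jarid2 peaks at TSSs that overlap a Jarid2-K116me2 peak (common TSS peaks) and the 339 of them with a Jarid2 score under 200. The 519 Jarid2-only peaks farther than 1 kb from a TSS were a further one.

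Jarid2 is an accessory subunit of Polycomb Repressive Complex 2 (PRC2), the enzyme that methylates lysine 27 of histone H3. Trimethylated H3K27 (H3K27me3) marks silent genes, and in ESC it covers many CpG-rich promoters of developmental regulators. PRC2 also methylates Jarid2 at K116, and the K116A mutant, in which alanine replaces this lysine, cannot be methylated there.

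Both Jarid2 antibodies were used on E14, a line of ESC grown in serum with LIF, with 1 ChIP-seq sample each. H3K27me3 was mapped in Jarid2 -/- ESC (KO), in these cells carrying a Jarid2 BAC (WT-rescued) and in these cells carrying a Jarid2 K116A BAC (K116A-rescued), as ESC and as embryoid bodies (EBs), which were formed in hanging drops and taken after 8 days without LIF. Each of these 6 groups has 2 replicates, 12 libraries in all. All 3 lines share the Jarid2 deletion and differ in the BAC, a large genomic clone integrated in the genome, and no H3K27me3 library comes from E14. The scores of H3K27me3 peaks are printed as deposited, and their scale is not given in the sources used here. No RNA values were analysed here, so the deletion and the identity of the cells could not be checked on expression.

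The H3K27me3 lists differed in length. They held from 1478 peaks covering 2.31 Mb (ESC WT-rescued replicate 1) to 14125 peaks covering 55.0 Mb (EB KO replicate 2). The replicate 1 libraries of ESC held 3554 (KO), 1478 (WT-rescued) and 5183 (K116A-rescued) peaks, against 9836, 8579 and 9143 in the replicate 2 libraries. Every other list held 6811 peaks or more. The read numbers that the study states for its libraries were not used here, and the part of depth in these differences was not tested. The study calls the replicates 2 its samples of higher quality. Results on H3K27me3 are given with and without the replicate 1 libraries of ESC where that changes them.

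The DNA at these promoters ranged from CpG-poor to CpG-dense. The following sequences show the 120 bases immediately upstream of the TSS at 6 Jarid2-only TSS peaks, read 5′ to 3′ on the strand of the gene in NCBIM37 (mm9), with each CG dinucleotide in capitals. They were taken among protein-coding genes whose 120 bases lie inside the peak and hold no annotated exon: the pair with the highest scores, the highest score with H3K27me3 peaks in all 12 libraries, the highest score with none, and the lowest and highest CpG ratio around the peak midpoint.
Nrxn3 (chr12:91050803-91050922): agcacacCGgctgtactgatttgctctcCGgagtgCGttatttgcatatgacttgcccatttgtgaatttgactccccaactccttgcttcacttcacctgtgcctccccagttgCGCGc
Rasl10b (chr11:83223454-83223573): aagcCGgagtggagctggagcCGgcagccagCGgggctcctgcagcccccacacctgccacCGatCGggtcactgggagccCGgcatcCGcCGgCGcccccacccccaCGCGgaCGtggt
Gprin1 (chr13:54851236-54851355): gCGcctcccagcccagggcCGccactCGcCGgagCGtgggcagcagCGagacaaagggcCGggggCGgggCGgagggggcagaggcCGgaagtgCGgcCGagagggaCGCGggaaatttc
Krt19 (chr11:100007435-100007554): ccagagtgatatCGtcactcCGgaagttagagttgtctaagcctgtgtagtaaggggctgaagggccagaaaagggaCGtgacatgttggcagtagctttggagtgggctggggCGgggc
Sertad4 (chr1:194677942-194678061): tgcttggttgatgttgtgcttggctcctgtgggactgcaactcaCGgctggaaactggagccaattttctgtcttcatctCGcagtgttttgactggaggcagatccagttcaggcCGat
Lrp5 (chr19:3686565-3686684): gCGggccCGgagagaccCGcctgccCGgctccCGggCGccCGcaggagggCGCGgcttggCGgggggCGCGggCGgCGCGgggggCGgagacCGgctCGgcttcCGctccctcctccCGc

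The 120 bases held 20 CG dinucleotides at Lrp5, a Wnt coreceptor, 14 at Gprin1, a gene of neurite outgrowth, and 12 at Rasl10b, and 5, 4 and 3 at Nrxn3, Krt19 and Sertad4. Among these 6, the CpG count did not order the promoters by H3K27me3. The CpG-dense Lrp5 promoter had no H3K27me3 peak in any of the 12 libraries, and the Gprin1 promoter had a peak in all 12. Sertad4 had one in the 3 replicate 2 libraries of ESC (scores of 94.4 in KO, 70.1 in WT-rescued and 75.3 in K116A-rescued cells) and in no other.

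In score, the Jarid2-only TSS peaks were low and continued the lower end of the common peaks. The MACS score of a peak, −10 times the log10 of its p-value, had a median of 106 (quartiles 80.1 and 142, range 62.1 to 372). The common TSS peaks had a median of 782 (quartiles 320 and 2108). Of the Jarid2-only TSS peaks, 219 scored under 100, 214 from 100 to under 200 and 47 from 200 upward. Among common TSS peaks, 87.4% scored 200 or more. The lowest score in the Jarid2-K116me2 list was 91.9, and 181 of the 480 peaks (37.7%) had a Jarid2 score below it. With 1 sample per antibody, none of these scores has a replicate error.

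**Figure D1:**
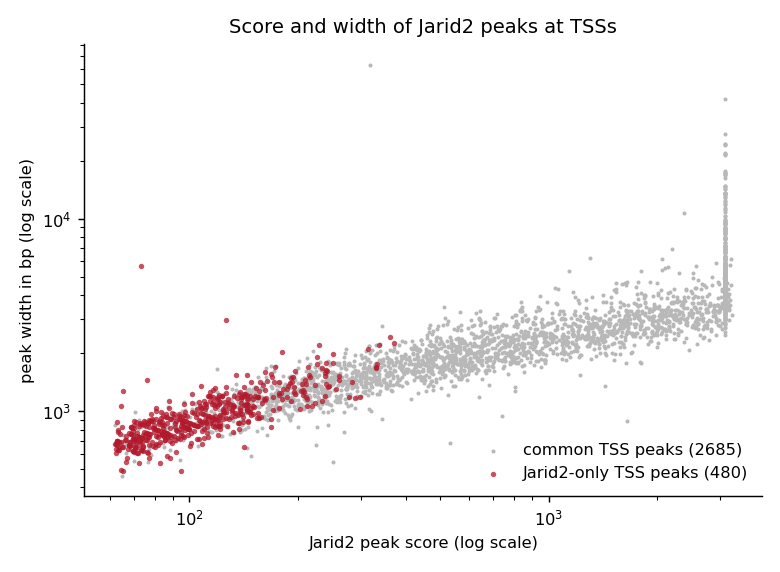
Jarid2 score against peak width in bp, both on log scales, for the 480 Jarid2-only TSS peaks (red) and the 2685 common TSS peaks (grey), each point 1 peak. The Jarid2-only peaks occupy the low end of a single band, between scores of 62.1 and 372, where they overlap the weakest common peaks.

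Width followed score. The median width was 904 bp (quartiles 763 and 1134), against 2214 bp for common TSS peaks and 1045 bp for common TSS peaks scoring under 200. A width under 1 kb was found in 301 of the 480 (62.7%) and in 5.88% of the common TSS peaks. Only 8 of the 480 spanned 2 kb or more. The widest lay at Gm13233, an annotated pseudogene (5689 bp, score 73.2), and at Dux, a double homeobox gene (2965 bp, score 126), 2 peaks that were wide for their score. The third was at Prdm1 (2409 bp). The lowest scores were those of Dll3, a Notch ligand (62.1), 5730522E02Rik (62.3) and Furin, a proprotein convertase (62.4).

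The peaks lay mostly downstream of the TSS. The midpoint was downstream in 346 of 480 (72.1%), close to the 73.2% of common TSS peaks, and its median distance from the TSS was 378 bp, against 292 bp for common TSS peaks. The peak itself held its nearest TSS in 310 of the 480 (64.6%) and in 93.9% of common TSS peaks. Against the common peaks scoring under 200, which are nearly as narrow, it compares with 69.6%. A midpoint over 600 bp upstream was found in 37 (7.71%) of the Jarid2-only peaks and in 3.35% of the common ones. Among common TSS peaks scoring under 200 it was found in 5.31%. By annotation, 237 midpoints fell in an intron, 175 in an exon and 68 outside genes.

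**Figure D2:**
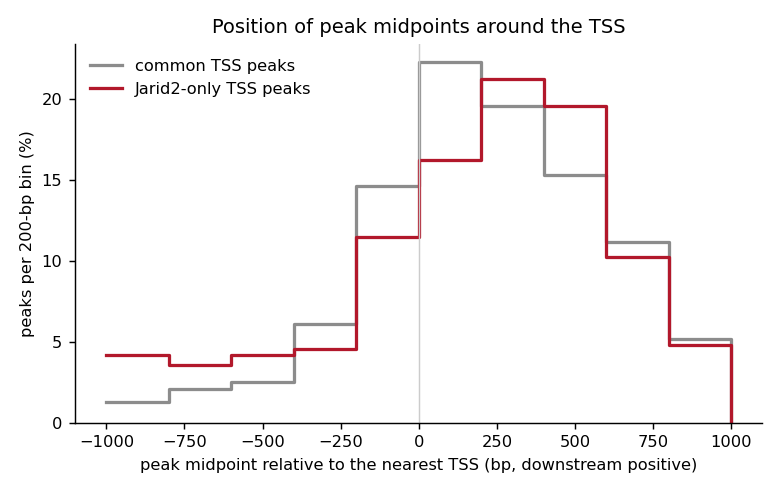
Position of the peak midpoint relative to the nearest TSS, in bins of 200 bp, as the percent of the 480 Jarid2-only TSS peaks (red) and of the 2685 common TSS peaks (grey). Both distributions peak downstream of the TSS, with midpoints downstream in 72.1% and 73.2%. More of the Jarid2-only midpoints lie over 600 bp upstream (7.71% against 3.35%, and 5.31% of common TSS peaks scoring under 200).

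Some peaks lay close to the 1 kb limit on the TSS or to the 1 bp limit on overlap, on either side. Just inside the TSS limit were the peaks of Gm3764 (997 bp, score 98.0), Fgfr4 (992 bp, 70.6) and Furin (981 bp, 62.4). Just outside it, with higher scores, were those nearest to Gdf11 (1005 bp, 284), Sgcb (1016 bp, 210) and Mtap7d1 (1018 bp, 160). The smallest gap to a Jarid2-K116me2 peak was 11 bp (AC117657.1), then 15 bp (Gm15634) and 25 bp (4930593A02Rik). The smallest overlaps among common TSS peaks were 6 bp at Fign, 12 bp at 4930570G19Rik and 69 bp at Rgs11. Most Jarid2-only TSS peaks were far from this limit. Their median gap to the nearest Jarid2-K116me2 peak was 109539 bp, while 80 of the 480 (16.7%) had one within 5 kb and 57 (11.9%) within 1 kb. The Jarid2-only peaks away from TSSs were closer, with a median gap of 7114 bp. A common Jarid2 peak lay elsewhere in the same gene, or within 1 kb of its ends, for 106 of the 480.

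The promoters were less CpG-rich than those of common peaks. In the 500 bp around the peak midpoint, the observed to expected CpG ratio had a median of 0.589 (quartiles 0.461 and 0.723), lower than in common TSS peaks (0.737) and in those scoring under 200 (0.679), and higher than in Jarid2-only peaks away from TSSs (0.401). A GC content over 50% with a CpG ratio over 0.6 was found in 216 of the 480 (45.0%), in 73.9% of common TSS peaks and in 67.8% of those scoring under 200. The difference was smaller around the TSS itself than around the peak midpoint. In the 500 bp around the TSS the criterion was met at 65.6% of Jarid2-only TSS peaks and 80.6% of common TSS peaks, against 47.6% of the 22350 protein-coding gene starts. Peaks are not replicates, so these differences carry no test.

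**Figure D3:**
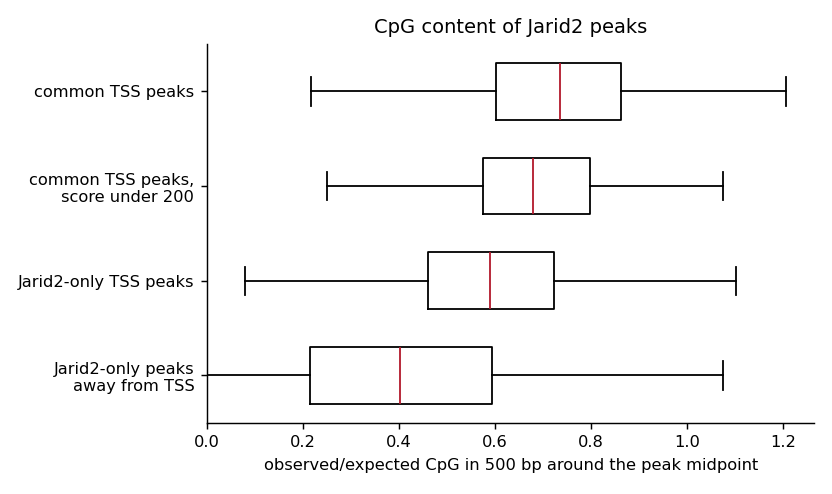
Observed to expected CpG ratio in the 500 bp around the peak midpoint, with the box giving the quartiles, the red line the median and the whiskers the values within 1.5 box lengths (outliers are not drawn). The medians rise from 0.401 (Jarid2-only, away from TSS) over 0.589 (Jarid2-only TSS peaks) and 0.679 (common TSS peaks with a score under 200) to 0.737 (all common TSS peaks).

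Short motifs were counted on both strands of the 500 bp around the TSS. CGCG occurred at 83.1% of Jarid2-only TSS peaks, 92.5% of common TSS peaks and 57.3% of all protein-coding gene starts. GGGCGG, the core of the GC box, occurred at 72.9%, 78.7% and 52.6%, and CCGCCG at 53.8%, 66.1% and 36.4%. These motifs can overlap each other and share their CG content. CCAAT ran the other way, with 35.6%, 31.3% and 48.0%, and so did TATAAA with 10.0%, 6.93% and 16.6%. AAGATGGC was found at 1.88%, 1.45% and 5.09%, CCGGAAG at 8.12%, 6.11% and 14.4%, and GCGCATGC at 2.29%, 1.60% and 3.89%. GAGAGAG (17.5%, 18.8% and 16.3%) and CACGTG (10.4%, 9.76% and 10.4%) were near the share of all gene starts. In each of the CG-containing motifs with the largest shares, the Jarid2-only promoters stood between all gene starts and the common promoters.

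The nearest TSS belonged to a protein-coding gene at 425 of the 480 peaks, to a lincRNA at 23, to a pseudogene at 15, to a processed transcript at 11 and to a miRNA at 4. The 425 peaks lay at 416 different protein-coding genes. Of these, 51 also had a common TSS peak. Among the highest scores were genes of germ cells, cilia, synapses and epithelia. Besides the pseudogene Gm13422 (372, the highest of all), they were Prdm1, a transcriptional repressor required for primordial germ cells (ENSMUSG00000038151.6, chr10:44176623-44179031, first ranked among coding genes with a score of 361), Kif19a, a kinesin of cilia (338), Nrxn3, a presynaptic adhesion protein (334), and Rasl10b, a small GTPase of the Ras family (331). Below these ranked Ppp1r1a, an inhibitor of protein phosphatase 1 (315), Ybx2, an RNA-binding protein of germ cells (298), 5730508B09Rik (289), Scnn1g, a subunit of the epithelial sodium channel (284), Sstr5, a somatostatin receptor (277), and Cyp4v3, a cytochrome P450 (261).

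Gene families were counted over lists of gene symbols. At least 1 list held 133 of the 416 protein-coding genes (32.0%), against 35.6% of the 2353 genes with a common TSS peak and 19.2% of the 22380 annotated protein-coding genes. Homeobox and other lineage transcription factors made up 9 of the 416 (2.16%), 4.63% of the genes of common peaks and 1.46% of all. None of the 304 genes of common TSS peaks scoring under 200 was such a factor. In terms of the list, 2.76% of these factors had a Jarid2-only TSS peak and 33.4% a common one. The strongest after Prdm1 were Nkx2-6 (227), Foxj1, a regulator of motile cilia (220), and Prdm6 (136), and the 9 also held Hoxa3 and Hoxd4.

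Synaptic, receptor and channel genes were a larger share of these genes than of all annotated ones. Synaptic and neuronal membrane genes gave 12 of 416 (2.88%), 1.70% of the genes of common peaks and 0.626% of all. Among them were Nrxn3, Dpysl3, a regulator of axon growth (208), Cplx2, a complexin of synaptic vesicle release (192), and Shank2, a postsynaptic scaffold (146.3). Matching by symbol also took in Stx11, Stx17 and Syt15, and a role at synapses was not checked for each gene. Neurotransmitter and peptide receptors with their signalling proteins gave 16 (3.85%, against 4.59% and 1.49%), led by Sstr5, Grid2ip (245.1), which binds a glutamate receptor, the dopamine receptor Drd2 (154) and the sphingosine-1-phosphate receptor S1pr3 (142). Ion channels gave 10 (2.40%, against 3.40% and 0.916%), among them Scnn1g, Kcnj10 (173) and Trpm6 (127). Axon guidance genes gave 4 (0.962%, against 1.74% and 0.411%), Lingo4 (142), Slitrk1 (126), Sema3e (96.5) and Ntn1 (68.1). Among the 304 genes of common TSS peaks scoring under 200, receptors were 3.29%, ion channels 1.97% and axon guidance genes 1.32%. No synaptic gene was among the 304.

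Adhesion and matrix genes, counted together with keratins, were the largest group. This group gave 17 of 416 (4.09%, against 3.74% of the genes of common peaks and 1.56% of all). Its highest scores were at Krt19, an epithelial keratin (216), the integrin Itga7 (205), the protease Adam19 (162) and the integrin Itga1 (148). Regulators of small GTPases gave 15 (3.61%, against 2.51% and 1.44%), after Rasl10b with Arhgap24 (138), Rin3 (120) and Rab11fip5 (120). Solute carriers gave 9 (2.16%, against 2.46% and 1.59%), led by Slc16a6 (213), the mitochondrial ADP/ATP carrier Slc25a4 (169), the vesicular glutamate transporter Slc17a7 (145) and Slc22a17 (145). Immune genes, matched by symbol, gave 8 (1.92%, against 2.08% and 1.97%), with Il28ra (171), Cd109 (164), Cd82 (140) and Il1rapl2 (127). Among the 304 genes of common TSS peaks scoring under 200, regulators of small GTPases were 3.95%, above their share of the 416. Adhesion and matrix genes were 1.97% of the 304, solute carriers 1.64% and immune genes 2.30%.

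Signalling pathways gave fewer genes each. Among the 304 genes of common TSS peaks scoring under 200, the Wnt and the receptor tyrosine kinase lists each gave 0.987%. The BMP and TGF-beta list gave 0.658% of the 304, and the Notch and hedgehog list none. The Wnt pathway gave 6 of 416 (1.44%, against 1.53% of the genes of common peaks and 0.349% of all): the coreceptor Lrp5 (133), the receptor Ror2 (110), the secreted agonist Rspo4 (89.0), the receptor Fzd3 (77.0), the planar polarity gene Vangl1 and the secreted inhibitor Wif1. FGF and other receptor tyrosine kinase signalling gave 4 (0.962%, against 2.51% and 0.523%), namely Igf1 (151), the phosphatase Dusp7 (138), the feedback inhibitor Spry1 (73.7) and the receptor Fgfr4 (70.6). Of Notch and hedgehog genes there were 3 (0.721%, against 0.552% and 0.174%), Hes3 (76.7), the receptor Notch1 (70.2) and Dll3, and of the BMP and TGF-beta pathway 1 (0.240%, against 1.27% and 0.344%), the pseudoreceptor Bambi (119).

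Genes of mitochondrial respiration and of translation were nearly absent, as they were from the genes of common peaks. No gene of mitochondrial respiration was among the 416 or among the genes of common peaks, against 0.594% of all. Ribosome, translation and proteasome genes gave 1 (0.240%, against 0.297% of the genes of common peaks and 1.67% of all), Eef1a2 (160), the elongation factor of muscle and neurons. Cell cycle, replication and repair genes gave 6 (1.44%, against 0.552% and 0.876%), with Cdc14b (168), the inhibitor Cdkn1b (161), Gadd45b (136) and E2f6 (98.8). Zinc finger genes also gave 6 (1.44%, against 0.977% and 2.05%): Zfp641 (197), Zbtb7b (142), Zfp36l2 (138), Zfp354b (107), Zfp385c and Zfp488. Chromatin genes gave 3 (0.721%, against 0.765% and 1.00%), the DNA methyltransferases Dnmt3b (99.9) and Dnmt3a (64.7) and Ezh2 (94.8), the catalytic subunit of PRC2 itself. The Ezh2 peak (ENSMUSG00000029687.9) was the narrowest of the 480 with 487 bp. Among pluripotency factors there was only Myc (178), 0.240% against 0.0850% of the genes of common peaks and 0.134% of all. Imprinted genes gave 2 (0.481%, against 0.552% and 0.197%), Dlk1 (86.9) and Plagl1 (86.7). The imprinted lincRNAs Nespas (181) and Airn (66.9) also had a peak. Among the 304 genes of common TSS peaks scoring under 200, none was of mitochondrial respiration or of ribosome, translation and proteasome. Cell cycle and zinc finger genes each gave 0.658% of the 304, chromatin genes 1.32%, and pluripotency factors and imprinted genes each 0.329%.

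H3K27me3 peaks were found at a part of these promoters in every library, in ESC and in EBs. The share of the 480 peaks that overlapped an H3K27me3 peak by at least 1 bp was 18.96% and 62.3% in the ESC KO replicates, 3.54% and 42.1% in WT-rescued ESC, and 22.1% and 50.6% in K116A-rescued ESC. In EBs it was 35.8% and 42.9% (KO), 27.9% and 28.3% (WT-rescued) and 34.2% and 43.3% (K116A-rescued). The lower value of each ESC pair was replicate 1, and the ESC values spread over the whole range of the EB values. With 480 peaks, the Wilson 95% interval ran from 38.6% to 47.4% for the 42.9% of EB KO replicate 2 and from 2.22% to 5.60% for the lowest library, which covers counting error only.

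**Figure D4:**
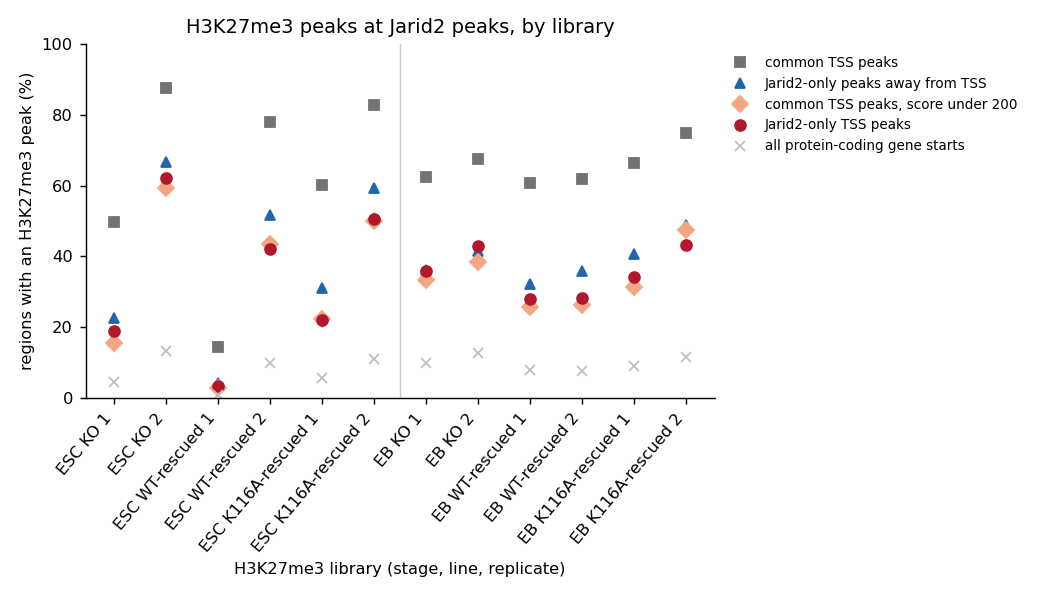
Percent of regions that overlap an H3K27me3 peak in each of the 12 libraries, for Jarid2-only TSS peaks (red circles), common TSS peaks (grey squares), common TSS peaks with a Jarid2 score under 200 (orange diamonds), Jarid2-only peaks away from TSSs (blue triangles) and all protein-coding gene starts with 500 bp to each side (crosses). The red circles lie under the grey squares in all 12 libraries and near the orange diamonds, and the replicate 1 libraries of ESC are lower than replicate 2 for every kind of region.

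The share was 33.3% ± 22.1 (SD, n = 6) in ESC and 35.4% ± 6.74 (SD, n = 6) in EBs. The difference of 2.15 percentage points was within the spread between libraries (exact permutation test, two-sided, p = 0.835), and depended on the replicate 1 libraries of ESC. Among replicates 1 the EB share was higher by 24.4 (WT-rescued), 16.9 (KO) and 12.1 (K116A-rescued) percentage points than the ESC share. Among replicates 2 it was lower, with differences of -19.4 (KO), -13.8 (WT-rescued) and -7.29 (K116A-rescued) percentage points. Without the replicate 1 libraries of ESC, a choice made after the list lengths were seen, the EB share was lower than the ESC share by a difference of -16.2 points (51.7% in ESC, exact permutation test of 3 against 6 libraries, p = 0.0357). The direction of change between the stages therefore differs between the replicate numbers.

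For comparison, H3K27me3 peaks overlapped 7.57% ± 4.63 (SD, n = 6 ESC libraries) and 9.82% ± 2.02 (SD, n = 6 EB libraries) of the windows of 1000 bp around protein-coding gene starts. Taking promoters with an H3K27me3 peak in both libraries of a group, the Jarid2-only TSS peaks gave 91 in ESC KO (18.96%, against 4.62% of all gene starts), 17 in ESC WT-rescued (3.54%, against 0.895%) and 106 in ESC K116A-rescued (22.1%, against 5.62%). In EBs there were 170 in KO (35.4%, against 9.73%), 111 in WT-rescued (23.1%, against 6.67%) and 162 in K116A-rescued (33.8%, against 8.85%). In ESC these counts equal those of replicate 1 alone, the shorter list. In replicate 2 alone the shares were 62.3% (KO), 42.1% (WT-rescued) and 50.6% (K116A-rescued), against 13.3%, 9.83% and 11.1% of all gene starts. Each of the shares in both libraries was above the share of all gene starts in its group.

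Common TSS peaks overlapped an H3K27me3 peak more often than Jarid2-only ones in each of the 12 libraries. They were also wider (median 2214 bp against 904 bp), and an overlap of 1 bp was enough to count. Their share was 62.1% ± 27.4 (SD, n = 6) in ESC and 65.6% ± 5.24 (SD, n = 6) in EBs. The Jarid2-only TSS peaks differed from them by -29.5 ± 7.13 percentage points (SD over 12 libraries, from -38.1 to -10.8). The exact sign-flip permutation test over libraries gave p = 0.000488, the smallest it can give with 12 libraries (adjusted p = 0.00146 by Benjamini-Hochberg over 3 comparisons). The Jarid2-only share was lower in 12 of 12 libraries. The change of this difference between ESC and EBs was -1.37 points, within the spread between libraries (exact permutation test, p = 0.820). These tests measure the spread between H3K27me3 libraries at fixed regions, not between Jarid2 ChIP experiments.

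Common TSS peaks with a Jarid2 score under 200 had mean shares of 32.4% in ESC and 33.7% in EBs, and the difference from them did not pass the test. The Jarid2-only TSS peaks differed from them by 1.30 ± 2.43 percentage points (SD over 12 libraries, from -4.16 to 4.57) being lower in 3 of 12, and the exact sign-flip permutation test gave p = 0.0938 (adjusted p = 0.0938). This small difference depended on the choices made. It passed 0.05 without EB K116A-rescued replicate 2 (1.798 points, exact sign-flip permutation p = 0.00977), and was -0.58 points when Jarid2-K116me2 peaks were extended by 500 bp. Within score classes the values were as follows. At scores from 100 to under 200, the ESC and EB means were 33.0% and 35.7% for the 214 Jarid2-only peaks, and 33.5% and 35.2% for the 268 common ones. At scores from 200 to under 400 they were 45.7% and 51.8% (47 peaks) against 45.2% and 45.1% (472 peaks), and under 100 they were 30.8% and 31.6% (219 peaks) against 28.2% and 28.2% (71 peaks). These class values were not tested.

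Jarid2-only peaks away from TSSs overlapped an H3K27me3 peak slightly more often than those at TSSs. The TSS peaks differed from them by -4.97 ± 3.63 percentage points (SD over 12 libraries), were lower in 11 of 12 libraries, and reached p = 0.00244 by the exact sign-flip permutation test (adjusted p = 0.00366). With the repeat array kept among the peaks away from TSSs, the difference was -1.82 points (exact sign-flip permutation p = 0.0840). In the 2 KO EB libraries it was near 0, with 35.8% against 36.2% and 42.9% against 41.6%.

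Between the lines, WT-rescued EBs stood apart from the other 2 EB groups, which overlapped each other. This held at every kind of region compared, so it was not particular to the Jarid2-only TSS peaks. At the Jarid2-only TSS peaks, KO EBs (35.8% and 42.9%) and K116A-rescued EBs (34.2% and 43.3%) were both above WT-rescued EBs (27.9% and 28.3%), by 11.2 and 10.6 percentage points. With 2 libraries against 2, the exact permutation test cannot go below p = 0.333, the value that both contrasts gave (0.667 after adjustment over 4 contrasts). Among all protein-coding gene starts, the EB shares were 7.99% and 7.66% (WT-rescued), 9.90% and 12.7% (KO) and 9.01% and 11.7% (K116A-rescued). Among common TSS peaks scoring under 200 they were 25.7% and 26.3% (WT-rescued), 33.3% and 38.3% (KO) and 31.3% and 47.5% (K116A-rescued). The H3K27me3 lists moved with these shares. They covered 33.6 and 55.0 Mb in KO EBs, 23.2 and 37.2 Mb in K116A-rescued EBs and 19.6 and 22.5 Mb in WT-rescued EBs, and the part of that coverage in the contrast was not tested. With the same number of 1478 strongest peaks taken from each library, the contrasts at Jarid2-only TSS peaks were 3.85 (KO) and 4.38 (K116A) percentage points. In ESC the groups overlapped, and in each line replicate 1 was the lower. The mean of KO minus that of WT-rescued ESC was 17.8 points, and that of K116A-rescued minus WT-rescued ESC was 13.5 points (exact permutation p = 0.667 for both). Within a replicate number both contrasts kept their sign, with 15.4 (replicates 1) and 20.2 (replicates 2) points for KO and 18.5 and 8.54 points for K116A-rescued ESC. Without ESC WT-rescued replicate 1, these differences became -1.46 and -5.73 points.

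Counted by promoter, H3K27me3 ranged from none to all libraries. No H3K27me3 peak was found in any of the 12 libraries at 136 of the 480 (28.3%), against 7.78% of common TSS peaks and 27.1% of those scoring under 200. Among all protein-coding gene starts it was 81.6%. A peak in all 12 was found at 14 (2.92%), against 13.1% of common TSS peaks, 2.36% of those scoring under 200 and 0.81% of all gene starts. This last count rests on the replicate 1 libraries of ESC. All 9 other libraries had an H3K27me3 peak at 80 (16.7%), against 49.3% of common TSS peaks and 15.0% of those scoring under 200. The count with no peak in these 9 was again 136 (28.3%, against 7.86% and 27.4%).

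**Figure D5:**
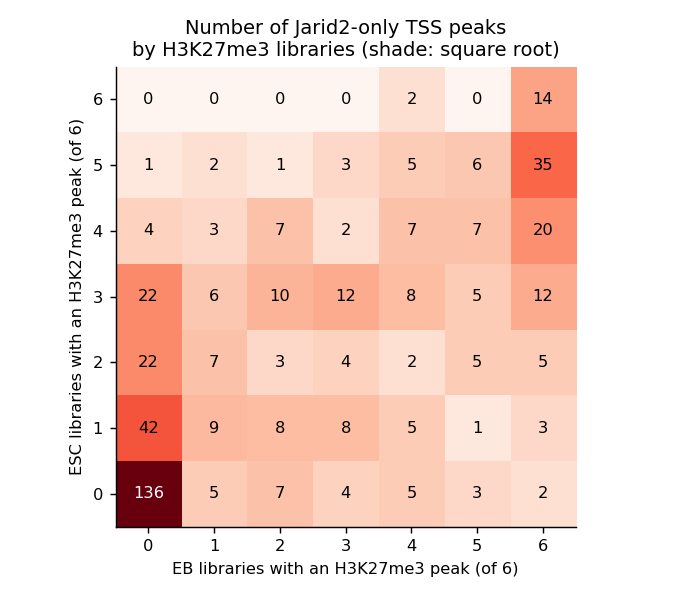
Number of Jarid2-only TSS peaks by the number of ESC libraries (vertical axis, of 6) and of EB libraries (horizontal axis, of 6) in which they overlap an H3K27me3 peak, with the shade following the square root of the number. The largest cells are 136 promoters with none, 42 with 1 ESC library and no EB library, and 35 with 5 ESC and 6 EB libraries, and no promoter had all 6 ESC libraries without an EB library.

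The promoters with H3K27me3 in all 12 libraries were headed by Gm13422, Ybx2 and Neto2, an auxiliary subunit of kainate receptors. At Ybx2 the H3K27me3 scores in ESC were 125 and 198 (KO), 78.7 and 162 (WT-rescued) and 81.9 and 158 (K116A-rescued). In EBs they were 181 and 169 (KO), 149 and 135 (WT-rescued) and 187 and 192 (K116A-rescued). Neto2 ranged from 68.6 to 161 over the 12 libraries. Both lay close to a Jarid2-K116me2 peak, with gaps under 200 bp. The others by score were Gm15634, Mir1900, Stxbp5l, a regulator of vesicle fusion, Zpbp2, a sperm protein, Tmem108, Gnao1, the alpha subunit of the G protein Go, and Gm4895. Of these 10, Stxbp5l and Tmem108 were the farthest from a Jarid2-K116me2 peak (530885 and 647759 bp).

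Some neuronal genes had H3K27me3 in all but 1 library, and others in few or none. Drd2, Grid2ip and the vesicular transporter Slc17a7 each had a peak in 11 of the 12, in each case in all 6 EB libraries. At Drd2 the H3K27me3 scores in ESC were 68.7 and 81.7 (KO), 0 and 55.7 (WT-rescued) and 54.7 and 68.7 (K116A-rescued), where 0 stands for no peak. In EBs they were 66.9 and 86.6 (KO), 54.8 and 57.4 (WT-rescued) and 51.2 and 88.6 (K116A-rescued). Only ESC WT-rescued replicate 1, the shortest list, had none. Over the lists, the median number of libraries with a peak was 7 for ion channels, for receptors and for solute carriers. It was 4 for synaptic genes, 2 for adhesion and matrix genes and 1 for axon guidance genes, beside 3 for all 425 coding peaks.

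The highest scores among the 136 promoters without H3K27me3 peaks were those of 7530420F21Rik, a lincRNA that shares its promoter region with the cyclooxygenase gene Ptgs2 (331), Lmo3, a LIM-domain cofactor (240), Nfia, a transcription factor of the nuclear factor I family (224), Krt19 (216), 4922505E12Rik (215) and Tead3, a TEAD factor of the Hippo pathway (212). Ezh2, Dnmt3a, Cdkn1b, Notch1, Igf1, Spry1, Dusp7, Lrp5, Ror2, Bambi, Prdm6, Sema3e, Dlk1 and both imprinted lincRNAs were also without a peak in any library. Hence 3 of the 4 genes of receptor tyrosine kinase signalling and 3 of the 6 of the Wnt pathway were among them, as were 6 of the 17 of adhesion and matrix, 1 of the 9 lineage transcription factors and none of the 9 solute carriers. Over all 425 peaks at coding genes the share was 29.2%.

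Few promoters differed between the stages in every library, at shares no higher than among common TSS peaks. Shares over all gene starts were not counted for the stage patterns. No promoter had H3K27me3 in all 6 ESC libraries and in no EB library, against 0.0372% of common TSS peaks. The reverse, none in ESC and all 6 in EBs, was found at 2 (0.417%, against 0.447% of common TSS peaks and 0.885% of those scoring under 200). These were the lincRNA A930011O12Rik and Map3k6, a MAP kinase kinase kinase. At Map3k6 the EB scores were 79.0 and 108 (KO), 61.0 and 56.4 (WT-rescued) and 57.0 and 99.2 (K116A-rescued). With at least 1 library of the one stage and none of the other, 91 promoters (18.96%) had H3K27me3 only in ESC and 26 (5.42%) only in EBs, against 12.6% and 2.79% of common TSS peaks and 20.4% and 8.26% of those scoring under 200. In all 3 replicate 2 libraries of ESC and in no EB library it was found at 26 (5.42%, against 6.15% of common TSS peaks and 6.49% of those scoring under 200), among them Plcd1, a phospholipase C, Hsd11b2, a glucocorticoid-inactivating enzyme, and Dnmt3b, which were taken from the list of highest scores after their values were seen. At Dnmt3b the scores were 51.2 (KO), 35.7 (WT-rescued) and 43.9 (K116A-rescued) in these 3 libraries.

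Some promoters differed between the lines in EBs, as did some common TSS peaks. Shares over all gene starts were not counted for these contrasts. H3K27me3 in both KO and neither WT-rescued library was found at 39 (8.12%, against 4.25% of common TSS peaks and 7.67% of those scoring under 200), and the reverse at 6 (1.25%, against 2.16% and 0.885%). H3K27me3 in both K116A-rescued and neither WT-rescued library was found at 38 (7.92%, against 6.15% and 5.01%), and the reverse at 6 (1.25%, against 0.931% and 0.295%). Prdm1 was among the 38. It had scores of 53.3 and 51.3 in K116A-rescued EBs and no peak in WT-rescued or KO EBs, and among ESC only KO replicate 2 had a peak (40.6). At Foxj1 both KO EB libraries (65.7 and 86.5) and 1 of the K116A-rescued ones (36.2) had a peak, and the WT-rescued ones had none. Nrxn3 was among the 6 with a peak in WT-rescued EBs (47.7 and 61.4) and none in KO EBs, while the K116A-rescued EBs also had one (59.7 and 73.4). These lists were read from libraries with unequal numbers of peaks, and no single promoter was tested.

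C2cd2l, a lipid transfer protein of contacts between endoplasmic reticulum and plasma membrane, had a peak of middle score (113, ENSMUSG00000032120.9, chr9:44127227-44128140, width 914 bp, midpoint 190 bp downstream of the TSS in an exon, 30394 bp from a Jarid2-K116me2 peak). In ESC it had H3K27me3 peaks in KO replicate 2 (68.8) and K116A-rescued replicate 2 (58.9) and in neither WT-rescued library. In EBs the scores were 49.6 and 66.8 in KO, 0 and 44.0 in WT-rescued and 120 and 85.2 in K116A-rescued cells. The WT-rescued EBs had the lowest values of the 3 EB groups at this promoter, with no overlap with either of the others.

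Within the 480, the H3K27me3 share was highest at the lowest CpG ratios, and it was higher near Jarid2-K116me2 peaks than far from them. The 87 peaks with a CpG ratio under 0.4 had a mean H3K27me3 share of 47.7% ± 26.4 in ESC and 49.0% ± 6.32 in EBs (SD, n = 6 libraries each). The 162 peaks with a ratio from 0.4 to under 0.6 had 32.3% ± 22.1 and 32.6% ± 7.60, close to the 28.5% ± 20.6 and 32.3% ± 6.67 of the 231 peaks with a ratio of 0.6 or more. Among common TSS peaks the lowest and highest of these classes were at 63.5% and 65.1% against 62.3% and 66.9%. The 80 Jarid2-only TSS peaks within 5 kb of a Jarid2-K116me2 peak had 47.1% ± 20.8 in ESC and 49.0% ± 6.39 in EBs, and the 400 farther away had 30.5% ± 22.5 and 32.7% ± 6.97. Both features stood together at 33 peaks. At the 54 peaks of low CpG ratio farther than 5 kb away the means were still 45.4% and 46.3%. In each of the 12 libraries the share within 5 kb was above the share beyond it. Since these classes were formed after the values were seen, no test was made on them.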

How the data were processed

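ChIP-seq of total Jarid2 and Jarid2-K116me2 (E14 ESC, 1 sample each) and of H3K27me3 (3 lines, ESC and EBs, 2 replicates each) was analysed. The series has 16 samples, and values of the inputs were not analysed here. Single reads were mapped to mm9 by the authors with Bowtie2 2.1.0, duplicates were removed, and peaks were called against input with MACS 1.4.2 (Jarid2, Jarid2-K116me2) and, as broad peaks, with MACS2 2.0.10 (H3K27me3). Versions are those of the submitters' processing notes, which also name HOMER 3.17. Samples were not pooled. The deposited values are a position and a score per peak, not normalized for depth. The files hold no read numbers, and those the study states were not used here.

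All peaks fitted within the chromosomes of NCBIM37, and TSSs came from its GENCODE annotation. Overlap meant at least 1 bp. The members, gene lists (matched by symbol) and named genes were chosen with earlier results of these data known. Named were the members with the 10 highest scores at coding genes, the 3 widest and 3 lowest, those with H3K27me3 in all 12 or none of the libraries or in 1 stage, up to 4 per gene list, those nearest the limits, and C2cd2l. A gene that this rule names is not reported here. H3K27me3 shares were compared over libraries by exact permutation and sign-flip tests, adjusted by Benjamini-Hochberg. The 2 replicates are labelled as such, and p-values measure only the spread between libraries. The deviations of same-numbered replicates over all Jarid2 peaks correlated between ESC and EBs at 0.119 (KO), 0.0688 (WT-rescued) and 0.0997 (K116A-rescued), so these numbers were not taken as pairs. Between ESC lines they correlated at 0.205 (KO and WT-rescued), 0.446 (KO and K116A-rescued) and 0.149 (WT- and K116A-rescued). Alternatives covered the overlap, the TSS distance, the score limit, the H3K27me3 threshold and libraries left out. Functions were tested on simulated peaks. Tools were pysam 0.24.0, scipy 1.17.1 and pandas 2.3.3 under Python 3.11.15, with matplotlib 3.10.9 for figures and numpy 2.4.6.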

Additional observations from a re-analysis of the deposited data

How the results depend on the processing

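The unequal lengths of the H3K27me3 lists and the single sample per Jarid2 antibody limit these results. An alternative with a q threshold was not run, since the files hold scores only, and a score of at least 50, chosen after seeing the data, took its place. In every alternative tried, the H3K27me3 share of Jarid2-only TSS peaks stayed below that of common TSS peaks, with differences from -34.4 to -16.1 percentage points. The cause of the changes below was not tested.

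There were 299 promoters with the lowest score of the Jarid2-K116me2 list as limit (median score 132, width 1057 bp) and 310 where the peak had to hold the TSS (112 and 954 bp). Where an overlap had to reach 50% of the Jarid2 peak, the medians were 116.1 and 966 bp. The mean H3K27me3 share became 9.27% in ESC and 11.7% in EBs with equal numbers of peaks, 27.7% in EBs with 50% of the Jarid2 peak covered and 25.03% in EBs with the score limit.

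The EB minus ESC difference was -13.5 points without replicates 1 of all groups, -16.2 without those of ESC, and from -3.79 to 7.96 with single libraries left out. Taken as paired with the replicate block, it was 2.15 points (exact sign-flip permutation p = 0.781, 6 pairs), the same call. The change relative to common TSS peaks was 0.35 points where the peak held the TSS, 1.18 and 0.83 points without replicates 1 of all groups and of ESC, and from -3.23 to 2.23 with single libraries left out.

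Against common TSS peaks scoring under 200, the difference passed 0.05 with overlap of 50% (4.52 points), the score limit of Jarid2-K116me2 (3.48), a TSS within 500 bp (2.34) or inside the peak (3.05), 50% of the peak covered (3.22) and equal numbers of H3K27me3 peaks (1.32). It was -0.58 with Jarid2-K116me2 peaks and -0.0175 with Jarid2 peaks extended by 500 bp, and from 1.00 to 1.798 with single libraries left out. Against Jarid2-only peaks away from TSSs, it missed 0.05 with the repeat array kept (-1.82) and without replicates 1 (-5.81, where no p under 0.0312 was possible). In ESC, KO minus WT-rescued ran from -3.85 to 39.5 points and K116A-rescued minus WT-rescued from -5.73 to 32.8 points with single libraries left out.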
